A study of Mus musculus with 6 samples.

Results

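A set of 10 genes of acute inflammatory signaling was followed in whole skin of mouse embryos labeled as Tie1 knockout or Tie1 control. Tie1 encodes the endothelial receptor tyrosine kinase that works beside TIE2. The 10 genes are Lbp, Cd14, Tlr4, Il1r1, Il6, Il6ra, Osmr, Socs3, Lrg1 and Saa3, matched by symbol, and all 10 were found among the 19131 genes of the deposited tables. Bulk RNA-seq was made from skin at embryonic day 17.5, in 3 Tie1 knockout and 3 control samples, all on the C57BL/6N background. The labels write the letters ECD after Tie1 in the sample names of both groups without explaining them, and they give neither the cells in which Tie1 was deleted nor whether each library came from its own embryo or from pooled skin. The p-values below therefore measure only the spread between these libraries, which may be technical. The set was chosen by the knockout-against-control fold changes of these same libraries, known beforehand, together with roles in the pathway. Their values in that contrast are thus a description, in which adjusted p-values only mark what a fit called, and the count of called genes among them supports nothing.

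In an acute inflammatory response, bacterial lipopolysaccharide is carried by LPS-binding protein (Lbp) to CD14, which hands it to the receptor TLR4 and its partner MD-2. Interleukin-1, sensed by IL1R1, and TLR4 share adaptor proteins that activate NF-kB and the making of interleukin-6. Interleukin-6 and oncostatin M then signal through receptors that contain gp130 and activate STAT3, which induces acute-phase proteins and its own inhibitor SOCS3. In skin these genes are spread over many cell types. LRG1 is a secreted leucine-rich glycoprotein of endothelium, neutrophils and liver that modulates TGF-beta signaling in endothelial cells.

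Lbp and Lrg1 were lower in knockout than in control skin in every library, while the receptors Cd14, Tlr4, Il1r1, Il6ra and Osmr and the inhibitor Socs3 had knockout and control libraries that overlapped. Among the 8 of the 10 genes with enough reads to be tested, 1 (Lbp) was called lower and 0 were called higher by edgeR's quasi-likelihood test at an adjusted p under 0.05. Over all 15035 genes tested 0.160% were called, 0.0732% as lower, and since the genes were named from this contrast nothing is read from that difference. The groups did not overlap for 2 of the 8, Lbp and Lrg1, both lower in knockout libraries, against 13.8% of all genes tested without overlap in either direction and 6.82% lower without overlap. Il6 and Saa3 had too few reads to be tested and are given as read numbers. The libraries held 19826856 to 20591164 estimated reads, so that 3 reads, taken as the floor of detection, corresponded to 0.147 to 0.154 CPM (reads scaled to the library total and a TMM factor). Tie1 itself had 4.32, 2.63 and 2.26 CPM in knockout libraries, against 58.5, 50.6 and 60.0 CPM in control libraries (log2 fold change −4.20, SE 0.23, edgeR adjusted p = 0.00387), so every library matched its label. Knockout 1 and control 1 stood apart from the other 4 libraries in hair follicle genes, whose mean log2 CPM was 2.59 in knockout 1 and 3.03 in control 1, against 4.55 to 5.32 elsewhere.

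**Figure D1:**
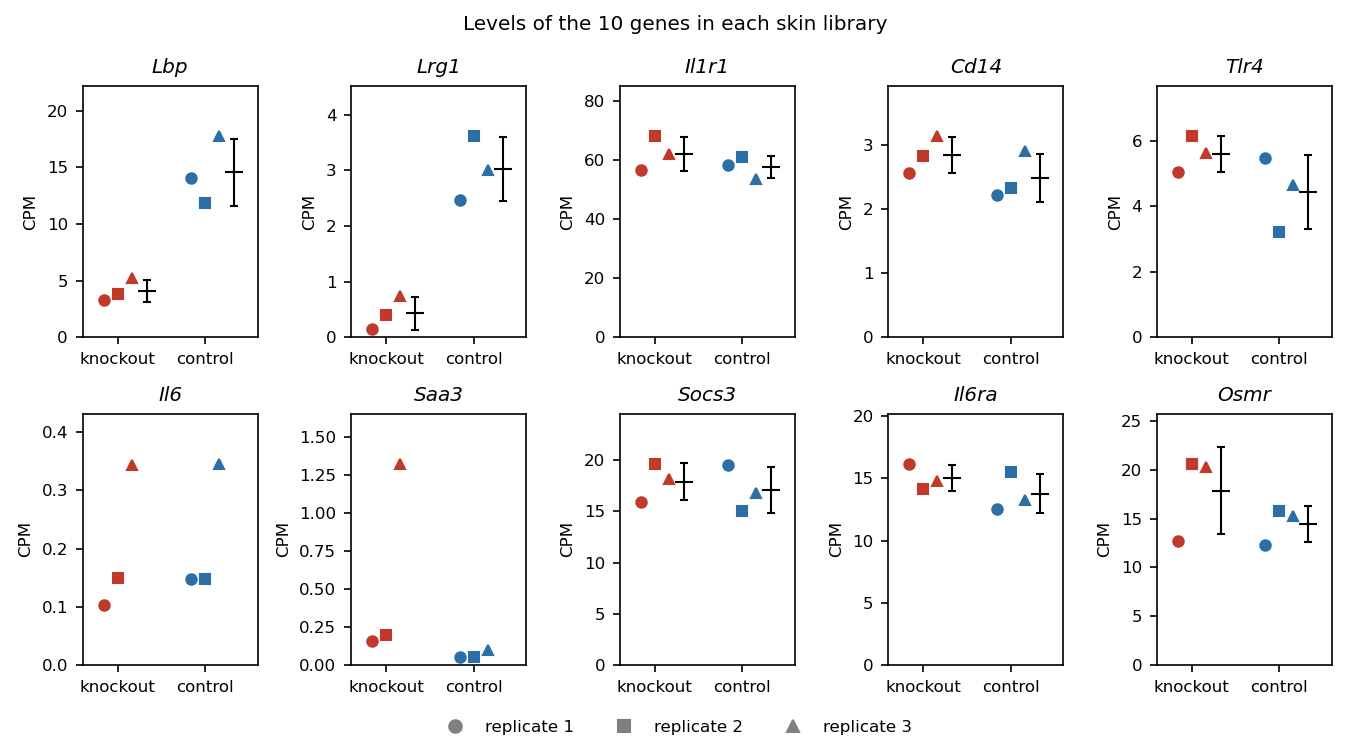
Levels of the 10 genes in CPM (linear axes from 0) in the 3 knockout and 3 control libraries; marker shapes give the replicate number, and bars the mean ± SD, left out for Il6 and Saa3. Lbp lies between 3.29 and 5.20 CPM in knockout and between 11.8 and 17.8 CPM in control libraries, and the single high Saa3 value, 1.32 CPM, is knockout 3.

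The sensing arm began with Lbp (gene 16803, chromosome 2, 158306493 to 158332852, plus strand, GRCm38.p6), the serum and tissue protein that extracts lipopolysaccharide from bacterial membranes. Lbp stood at 3.29, 3.82 and 5.20 CPM in knockout libraries, against 14.1, 11.8 and 17.8 CPM in control libraries. The highest knockout library was below the lowest control library. Lbp averaged 4.10 ± 0.985 CPM over knockout libraries, against 14.6 ± 2.99 CPM over control libraries (SD, n = 3 per group), a log2 fold change of −1.82 (SE 0.22). Summed over libraries, 247 knockout reads against 885 control reads gave a ratio of 0.283 (exact Clopper-Pearson 95% interval 0.244 to 0.326, which covers counting error only). The log2 fold change stayed between −2.03 and −1.66 when any 1 library was left out. The call was lost in each of those 6 smaller fits, where the edgeR adjusted p ran from 0.0711 to 0.282, and with limma-voom (adjusted p = 0.0632). It was also lost with a score of posterior Hox genes as a covariate (log2 fold change −1.68, edgeR adjusted p = 0.218), in a fit that called 0.0200% of genes. That score, which follows position along the body, read 1.55, 1.89 and 1.72 for knockout 1 to 3, against 1.57, 0.686 and 0.194 for control 1 to 3 (mean log2 CPM of 8 genes), and its part in the Lbp difference was not tested further.

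The partners that receive lipopolysaccharide from LBP did not show that separation. Cd14, the co-receptor of myeloid cells, stood at 2.57, 2.82 and 3.14 CPM in knockout libraries, against 2.22, 2.33 and 2.91 CPM in control libraries (log2 fold change 0.20, SE 0.20). Its knockout and control libraries overlapped. Tlr4, the signaling receptor, stood at 5.04, 6.14 and 5.64 CPM in knockout libraries, against 5.47, 3.22 and 4.64 CPM in control libraries (log2 fold change 0.34, SE 0.21). Control 2 was the lowest Tlr4 library, and control 1 lay inside the knockout range.

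Il1r1, the signaling receptor of interleukin-1, was the most abundant of the 10 genes and overlapped between groups. It stood at 56.5, 68.0 and 61.9 CPM in knockout libraries, against 58.4, 60.9 and 53.4 CPM in control libraries (log2 fold change 0.11, SE 0.089). It had its highest value in knockout 2 and its lowest in control 3. A transcript of unconfirmed type overlaps Il1r1 on its strand and an antisense transcript overlaps Il6ra, and their reads cannot be told apart here.

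In the gp130 arm the ligand gene Il6 was at or near the floor in every library. It had 2, 3 and 7 reads in knockout libraries, against 3, 3 and 7 reads in control libraries, a ratio of 0.935 (exact 95% counting interval 0.390 to 2.22). That ratio was 0.590 (0.165 to 1.76) without knockout 3 and 1.35 (0.469 to 4.38) without control 3, so it lay on either side of 1. The receptor genes were well expressed. Il6ra, the interleukin-6-binding chain, stood at 16.2, 14.1 and 14.8 CPM in knockout libraries, against 12.5, 15.5 and 13.3 CPM in control libraries (log2 fold change 0.12, SE 0.12), with overlapping groups. Osmr, the oncostatin M receptor chain, stood at 12.7, 20.6 and 20.3 CPM in knockout libraries, against 12.3, 15.8 and 15.2 CPM in control libraries (log2 fold change 0.31, SE 0.20). Knockout 1 and control 1 were the lowest Osmr libraries of their groups, and without both of them the log2 fold change was 0.40.

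Socs3, which STAT3 induces and which in turn blocks gp130 signaling, stood at 15.9, 19.6 and 18.1 CPM in knockout libraries, against 19.5, 15.0 and 16.8 CPM in control libraries. Its log2 fold change was 0.069 (SE 0.13) and its groups overlapped. Lif, a cytokine that also signals through gp130, measured 1.96, 1.83 and 1.86 CPM in knockout libraries, against 3.30, 1.73 and 3.60 CPM in control libraries (edgeR adjusted p = 0.694), with overlapping groups. The gp130 gene itself, Il6st, and Stat3, both looked up for their role in this arm, stood at log2 fold changes of 0.041 (SE 0.11, edgeR adjusted p = 0.951) and −0.057 (SE 0.11, edgeR adjusted p = 0.929).

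Of the secreted acute-phase products, Lrg1 (gene 76905, chromosome 17, 56119678 to 56121946, minus strand, GRCm38.p6) was low in the knockout and Saa3 was high in 1 knockout library. Lrg1 had 3, 8 and 15 reads in knockout libraries, against 50, 73 and 61 reads in control libraries, or 0.154, 0.396 and 0.736 CPM against 2.47, 3.61 and 3.01 CPM. The groups did not overlap, and knockout 1 was at the floor. The log2 fold change was −2.79 (SE 0.44), and 26 knockout against 184 control reads gave a ratio of 0.143 (exact 95% counting interval 0.0910 to 0.216). Without knockout 3, the highest knockout library, the ratio was 0.0917 and the log2 fold change −3.42. Lrg1 was not called by edgeR with genotype alone over all 6 libraries (adjusted p = 0.0847). It was called with the hair follicle score as a covariate over the same 6 libraries (log2 fold change −2.74, edgeR adjusted p = 0.0211), in a fit that called 0.791% of genes. It was also called without knockout 1 and control 1, at a log2 fold change of −2.53, in a fit that called 0.923% of genes, and by DESeq2, which called 1.40%. Lrg1 was not called in the other 14 alternatives. With 1 library left out its edgeR adjusted p ran from 0.108 to 0.442. With the posterior Hox score as a covariate the edgeR adjusted p was 0.326, and the limma-voom adjusted p was 0.0987.

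Saa3 (chromosome 7, 46711998 to 46719615), a serum amyloid A of mouse macrophages, adipocytes and inflamed epithelia, had 3, 4 and 27 reads in knockout libraries, against 1, 1 and 2 reads in control libraries. The groups did not overlap, with knockout libraries higher, but all libraries except knockout 3 were at or near the floor of 3 reads. Of all genes tested 13.8% had no overlap in either direction, a share that leaves out Saa3. Knockout 3 held most of the knockout reads. The ratio was 8.61 (exact 95% counting interval 3.07 to 33.4) over all libraries and 2.68 (0.682 to 12.5) without knockout 3. Knockout 3 was also the highest library for S100a8 and S100a9, the calprotectin genes of neutrophils and stressed keratinocytes, and for Lcn2, the iron-binding lipocalin, but not for most other neutrophil genes, which are given with the cell markers. S100a9 stood at 0.875, 1.93 and 12.8 CPM in knockout libraries, against 3.16, 1.68 and 1.53 CPM in control libraries, and Lcn2 at 0.617, 2.03 and 3.73 CPM in knockout libraries, against 1.18, 1.29 and 0.888 CPM in control libraries. The part of that library in the Saa3 ratio is given by the value without it.

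**Figure D2:**
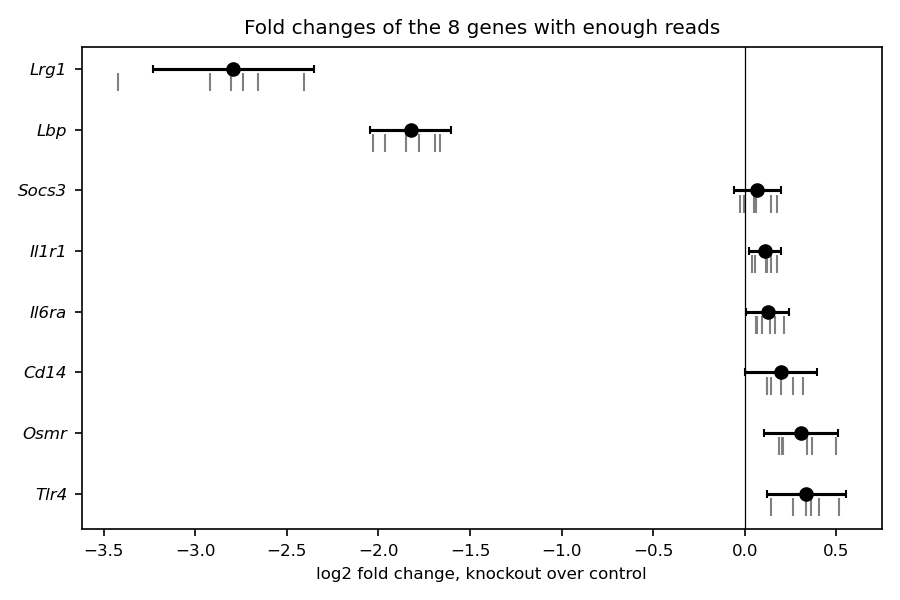
Log2 fold change of knockout over control for the 8 genes with enough reads; points and bars are the edgeR estimate ± SE over 6 libraries, and grey ticks the 6 estimates with 1 library left out. The Lrg1 and Lbp ticks all lie at or below −1.66, and those of the other 6 genes lie between −0.025 and 0.51.

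Sequence upstream of an annotated start site was compared for Lrg1, which was lower in the knockout, and for Socs3 and Il6, textbook targets of STAT3 and of NF-kB with C/EBP. The 250 bases before an annotated start are shown 5′ to 3′ on the gene's strand (RefSeq, GRCm38.p6), with motif matches in capitals. They lie at chr17:56121947-56122196 (minus strand) for Lrg1, chr11:117969367-117969616 (minus strand) for Socs3 and chr5:30012864-30013113 (plus strand) for Il6. The Lrg1 and Il6 windows adjoin the coordinates of their genes. The Socs3 window lies inside those of its gene (117966079 to 117970336), so its start is not the outermost one. The Il1r1, Saa3 and Osmr windows searched below also lie inside the coordinates of their genes.
Lrg1: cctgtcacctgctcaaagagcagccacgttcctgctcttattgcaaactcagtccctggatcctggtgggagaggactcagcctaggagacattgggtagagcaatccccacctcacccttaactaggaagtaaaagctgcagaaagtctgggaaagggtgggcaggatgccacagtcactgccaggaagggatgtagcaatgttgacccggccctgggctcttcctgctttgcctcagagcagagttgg
Socs3: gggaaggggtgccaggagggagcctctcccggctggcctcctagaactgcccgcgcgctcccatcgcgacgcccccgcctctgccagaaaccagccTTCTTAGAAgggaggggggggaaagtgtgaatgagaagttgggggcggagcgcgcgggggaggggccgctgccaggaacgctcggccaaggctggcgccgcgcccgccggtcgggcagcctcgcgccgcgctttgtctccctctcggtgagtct
Il6: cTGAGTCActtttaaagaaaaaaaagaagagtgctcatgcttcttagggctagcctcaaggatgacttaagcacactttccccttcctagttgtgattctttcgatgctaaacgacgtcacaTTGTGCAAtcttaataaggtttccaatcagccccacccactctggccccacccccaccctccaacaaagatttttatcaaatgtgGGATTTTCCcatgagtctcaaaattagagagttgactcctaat
The motifs searched, on both strands and with overlap allowed, were TTCNNNGAA for STAT, TTGCNNAA for C/EBP, GGANTTTCC for NF-kB and TGANTCA for AP-1. The Socs3 window held 1 STAT match, TTCTTAGAA, which begins 154 bases before the start used and lies inside the gene's coordinates. The Il6 window held 1 match each to C/EBP, NF-kB and AP-1, and the Lrg1 window held 0 of the 4 motifs, which says only that these letters are not in it. The NF-kB pattern is a second choice. A looser one (3 G, 5 of any base, then 2 C) was searched first and replaced after its matches were seen; it was in 45.8% of windows, in those of 6 of 7 genes (not Saa3) and at 1 place in the Lrg1 window. The Il6 window was likewise picked for display after its matches were known. Of 32851 windows of this length, 7.0% held the STAT motif, 9.6% the C/EBP motif, 1.1% the NF-kB motif and 6.7% the AP-1 motif. Windows were searched for 7 of the 10 genes (Il1r1, Il6ra, Il6, Saa3, Socs3, Osmr and Lrg1). Lbp and Tlr4 had no window in the sequence set, and Cd14 was left out of the search, so nothing is said of these genes. Among the 7 genes searched, the C/EBP motif was in the windows of 3, Il1r1, Il6 and Saa3. Il1r1 had a window with the match (chr1:40224830-40225079) and another without it (chr1:40266336-40266585). These counts are per gene, while the shares above are per window. The STAT motif was in that of Socs3 alone and the NF-kB and AP-1 motifs in that of Il6 alone. With 50 more bases past the start, the windows first searched, AP-1 also matched in Osmr and the gene counts of the other motifs were as given. These matches are letters in a window and say nothing of binding.

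The genes next to Lbp and Lrg1 on their chromosomes had log2 fold changes nearer 0. The nearest tested protein-coding genes around Lbp were Tgm2, D630003M21Rik, Ralgapb and Arhgap40, with log2 fold changes of 0.047 (SE 0.28), −0.16 (SE 0.12), −0.00051 (SE 0.064) and 0.81 (SE 0.34). Those around Lrg1 were Plin4, Plin5, Sema6b and Tnfaip8l1, at −0.33 (SE 0.41), −0.36 (SE 0.45), 0.078 (SE 0.13) and −0.023 (SE 0.14). All 8 had overlapping groups and edgeR adjusted p from 0.672 to 0.999. Between gene coordinates, without regard to strand, the gap to Lrg1 was 1139 bases for Sema6b and 2072 bases for Plin5. No gene annotated by GENCODE overlaps Lrg1 or Lbp. The estimated counts of Lbp were not whole in all 6 libraries, so some of its reads were shared by the model with other sequence.

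Per kilobase of annotated exon, Lbp ranked 7 of the 10 genes in knockout and 3 in control skin, and Lrg1 ranked 8 in knockout and 4 in control skin. The length is the union of all annotated exons (12113 bases for Osmr), not that of the transcript expressed. Levels and ranks are thus compared between genes only roughly. In knockout skin the mean levels were 9.76 CPM per kilobase for Il1r1, 6.19 for Socs3, 1.74 for Il6ra, 1.64 for Cd14, 1.47 for Osmr, 1.01 for Tlr4, 0.849 for Lbp, 0.305 for Lrg1, 0.215 for Saa3 and 0.0817 for Il6. In control skin they were 9.05 CPM per kilobase for Il1r1, 5.91 for Socs3, 3.02 for Lbp, 2.15 for Lrg1, 1.59 for Il6ra, 1.44 for Cd14, 1.19 for Osmr, 0.800 for Tlr4, 0.0881 for Il6 and 0.0253 for Saa3. In knockout skin the libraries of Il6ra and Cd14, Cd14 and Osmr, Osmr and Tlr4, Tlr4 and Lbp, Lrg1 and Saa3, and Saa3 and Il6 overlapped, so these neighbours in the order were not separated. In control skin the same held for Lbp and Lrg1, Lrg1 and Il6ra, Il6ra and Cd14, and Cd14 and Osmr.

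**Figure D3:**
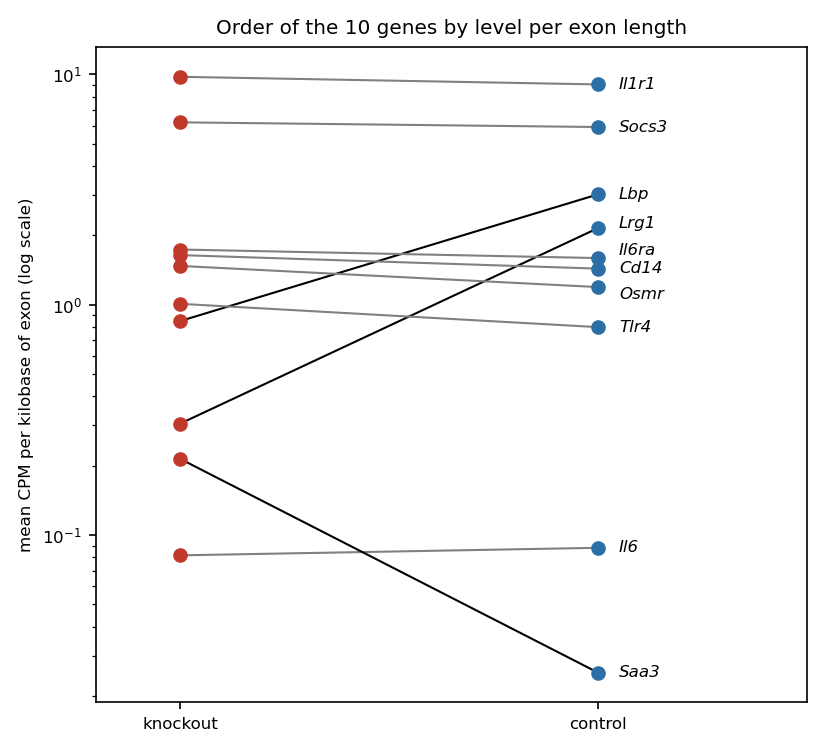
Mean level of each of the 10 genes in CPM per kilobase of annotated exon (log axis) in knockout (left) and control skin (right), joined by a line per gene. Lbp (0.849 against 3.02) and Lrg1 (0.305 against 2.15) change place in the order, and Il1r1 and Socs3 hold the top of it in both groups.

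The genes whose profile over the 6 libraries was nearest to that of Lbp were Fgl2, Dtx1, H2-Aa, Agt and Comp, by root mean square distance between centred log2 CPM among 13965 genes. The distances ran from 0.150 log2 units for Fgl2 to 0.268 for Comp. Fgl2, a fibrinogen-like protein of macrophages, T cells and endothelium, stood at 4.63, 5.60 and 8.29 CPM in knockout libraries, against 21.6, 19.9 and 34.2 CPM in control libraries. Agt, the angiotensinogen gene, stood at 9.52, 11.2 and 13.8 CPM in knockout libraries, against 35.0, 26.2 and 35.0 CPM in control libraries, and H2-Aa, an MHC class II chain, at 1.29, 2.03 and 2.16 CPM in knockout libraries, against 6.07, 4.80 and 6.07 CPM in control libraries. Nearest to Lrg1 were Sele, Chp2, Ccl21a, Gjd3 and Fgl2, at 0.297 to 0.536 log2 units. Sele, the E-selectin gene of activated venules, had 0, 0.0496 and 0.196 CPM in knockout libraries, against 1.04, 1.93 and 1.48 CPM in control libraries. Ccl21a has near-identical copies, and its estimated counts are uncertain for that reason. Lbp and Lrg1 were 0.616 log2 units apart, which gave Lbp rank 9 among the genes nearest to Lrg1 and Lrg1 rank 88 among those nearest to Lbp. The distance includes the difference between the groups, from which the genes were named. The log2 CPM used a prior count of 2, which draws in the differences of genes with few reads. Sele, with 0, 1 and 4 knockout reads, had a log2 fold change of −4.06, against −2.79 for Lrg1. Comp, at 0.103 to 0.149 CPM in knockout libraries, had −2.88, against −1.82 for Lbp.

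Of 100 tested genes in 6 lists around these pathways, 0 were called by edgeR over all genes in either direction. An unadjusted p under 0.05 was reached by 13 (9 higher, 4 lower), against 7.42% of all genes tested. DESeq2 called 2, Ptx3 and Mt1, both higher, against 1.40% of all genes, and limma-voom 0, against 0.0998%. The lists were written with earlier results of these data known. Their median log2 fold changes ran from −0.062 to 0.10, beside 0.0038 for all genes tested, except for the acute-phase list at 0.63.

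In the lipopolysaccharide and Toll-like receptor list, 0 of 20 tested genes were called and 2 had an unadjusted p under 0.05, both higher (median log2 fold change 0.097). Ly96, which encodes MD-2, the protein that binds lipopolysaccharide on TLR4, averaged 4.25 ± 0.559 CPM over knockout libraries, against 3.33 ± 0.279 CPM over control libraries (SD, n = 3 per group; edgeR adjusted p = 0.694). Tlr7, the receptor for single-stranded RNA, stood at a log2 fold change of 0.63 (SE 0.21), Tlr5, the flagellin receptor, at 0.42 (SE 0.17) and the kinase gene Irak2 at 0.40 (SE 0.17), with edgeR adjusted p from 0.510 to 0.671.

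In the interleukin-1 family list, 0 of 12 tested genes were called and 3 had an unadjusted p under 0.05, all lower (median 0.071). Casp1, the protease that matures interleukin-1 beta and interleukin-18, stood at 6.17, 4.71 and 4.81 CPM in knockout libraries, against 8.28, 7.97 and 7.94 CPM in control libraries (log2 fold change −0.62, SE 0.15, edgeR adjusted p = 0.262). Il1rl1, the interleukin-33 receptor carried by mast cells, stood at −0.67 (SE 0.24) and Il18 at −0.29 (SE 0.11), at edgeR adjusted p of 0.580 and 0.597. Il1r2, the decoy receptor, had a log2 fold change of 0.72 (SE 0.35) at an edgeR adjusted p of 0.706. Mast cell markers summed to 1852 to 1908 CPM in knockout libraries, against 2666 to 3694 CPM in control libraries, and their part in the Il1rl1 value was not tested.

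In the gp130 list, 0 of 21 tested genes were called, 2 had an unadjusted p under 0.05, and 15 had a log2 fold change below 0 (median −0.062). Il27ra, the interleukin-27 receptor, averaged 2.05 ± 0.319 CPM over knockout libraries, against 3.36 ± 0.381 CPM over control libraries (log2 fold change −0.71, SE 0.20, edgeR adjusted p = 0.412). Il31ra, the itch cytokine receptor that pairs with OSMR, averaged 10.2 ± 0.830 CPM over knockout libraries, against 7.18 ± 1.11 CPM over control libraries (log2 fold change 0.50, SE 0.15, edgeR adjusted p = 0.430; SD, n = 3 per group for both genes). Pias3, an inhibitor of STAT3, stood at −0.12 (SE 0.060, edgeR adjusted p = 0.698).

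Among acute-phase proteins, 12 of 25 genes had enough reads to be tested, edgeR called 0, and 2 reached an unadjusted p under 0.05, both higher. Ptx3, the long pentraxin made locally by endothelium, fibroblasts and myeloid cells, stood at 20.9, 14.6 and 14.8 CPM in knockout libraries, against 8.58, 7.77 and 8.09 CPM in control libraries (log2 fold change 1.04, SE 0.16, edgeR adjusted p = 0.0847). Its groups did not overlap, and it was called with the replicate number as a block, in a fit that called 0.346% of genes, with the hair follicle score as a covariate and without knockout 1 and control 1. Mt1, a metallothionein, stood at 78.9, 118 and 98.2 CPM in knockout libraries, against 55.5, 65.5 and 69.5 CPM in control libraries (log2 fold change 0.63, SE 0.16, edgeR adjusted p = 0.328). Serpina3n and Lcn2 stood at 2.33 (SE 1.22) and 0.93 (SE 0.59), each with overlapping groups. Ptx3 and Mt1 thus had values opposite in sign to Lrg1 and Lbp.

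In the NF-kB and TNF list, 0 of 23 tested genes were called and 3 had an unadjusted p under 0.05, all higher (median 0.10). Nfkbia, the inhibitor that NF-kB induces against itself, stood at 64.9, 64.5 and 54.4 CPM in knockout libraries, against 47.9, 47.0 and 49.3 CPM in control libraries (log2 fold change 0.35, SE 0.084, edgeR adjusted p = 0.276). Cebpd, a transcription factor of the acute-phase response, stood at 0.51 (SE 0.18), Zfp36, which destabilizes cytokine messages, at 0.51 (SE 0.21) and Nfkbiz at 0.29 (SE 0.14), with edgeR adjusted p from 0.565 to 0.693. Of the 12 genes in the list of TGF-beta ligands, receptors and downstream genes, written around LRG1, 0 were called and 1 had an unadjusted p under 0.05. That was Eng, the endoglin co-receptor bound by LRG1, which averaged 130 ± 2.78 CPM over knockout libraries, against 108 ± 6.94 CPM over control libraries (SD, n = 3 per group; log2 fold change 0.27, SE 0.066, edgeR adjusted p = 0.306). Tgfbr3, Id3 and Smad1 stood at 0.22, −0.18 and 0.099, with edgeR adjusted p from 0.678 to 0.783.

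**Figure D4:**
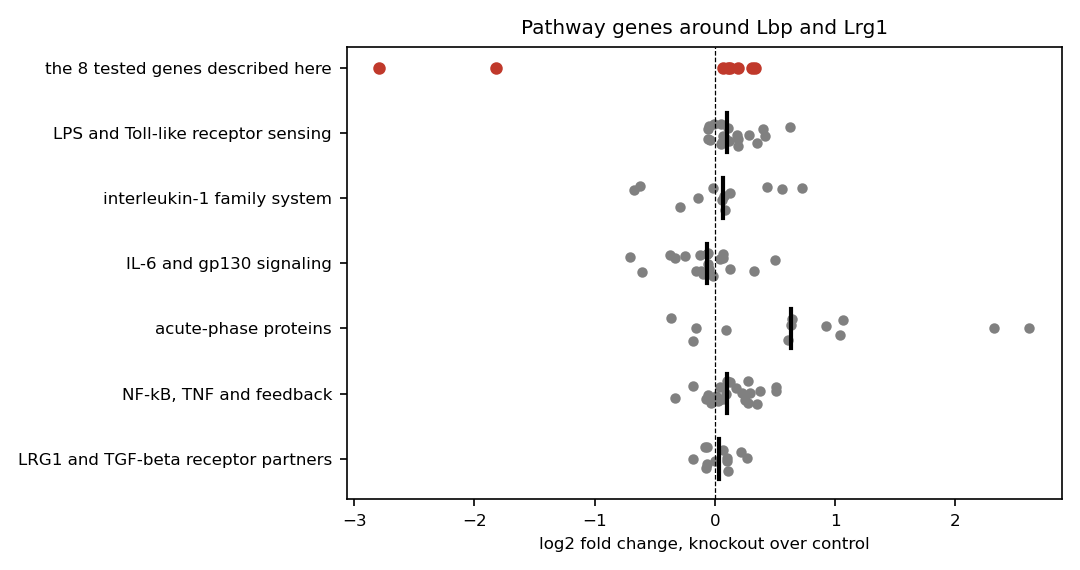
Log2 fold changes of knockout over control for the 8 tested genes (red, top row) and the tested genes of 6 pathway lists (grey), with each list's median as a black bar and the median of all genes as a dashed line. Lrg1 (−2.79) and Lbp (−1.82) lie below every gene of the 6 lists, whose lowest value is −0.71. Both were named from this contrast, so nothing is read from that difference.

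In whole skin, fewer cells of a type and less RNA per cell cannot be told apart, so summed markers of the cells that could carry these genes are given beside them. Venular endothelial markers summed to 220, 241 and 261 CPM in knockout libraries, against 371, 343 and 345 CPM in control libraries, without overlap. Of the 7 venular genes 5 had groups that did not overlap, all lower, against 6.82% of all genes tested, and Sele was at 0 in 1 knockout library. edgeR called 3 of the 7 lower, against 0.0732% of all genes. They were Selp, Vwf and Ackr1, at log2 fold changes of −4.59, −1.21 and −2.06 (edgeR adjusted p = 0.0113, 0.0247 and 0.0396). Selp had only 1, 4 and 3 reads in knockout libraries. DESeq2 called 5, against 1.40% of all genes, and limma-voom 2, against 0.0998%. The marker lists were written with earlier results of these data known, so nothing is read from such shares. The venular genes Nr2f2 and Ephb4 had overlapping groups, at log2 fold changes of −0.0051 and −0.18. Within the venular sum, Aplnr averaged 32.3 CPM over knockout libraries, against 98.1 CPM over control libraries. Ephb4, the largest part of the sum, averaged 150 CPM over knockout libraries, against 170 CPM over control libraries. Pan-endothelial markers overlapped between the groups, at 613 to 719 CPM in knockout libraries, against 590 to 689 CPM in control libraries. Of these 10 genes 3 had groups that did not overlap, against 13.8% of all genes tested: Emcn and Kdr were lower, at log2 fold changes of −0.52 and −0.17, and Pecam1 was higher, at 0.27. edgeR called 0 of the 10, with 2 at an unadjusted p under 0.05 (Emcn and Pecam1), DESeq2 called Emcn (adjusted p = 0.00818), and limma-voom called 0. Adipocyte markers summed to 308, 360 and 414 CPM in knockout libraries, against 651, 432 and 521 CPM in control libraries, also without overlap, and 5 of 6 tested adipocyte genes were lower without overlap, against the same 6.82%. Most of that sum came from Fabp4, Lpl and Car3, which averaged 174, 162 and 150.5 CPM over control libraries. Of the 6, edgeR called Plin1 alone (log2 fold change −3.22, edgeR adjusted p = 0.0353), against 0.0732% of all genes called lower. Adipoq stood at −3.88 (SE 0.88, edgeR adjusted p = 0.308). Lpl, at −0.33, had overlapping groups. The parts of these cells in the Lbp and Lrg1 differences were not tested.

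Macrophage and monocyte markers summed to 476 to 556 CPM in knockout libraries, against 345 to 489 CPM in control libraries, overlapping, and none of the 10 was at 0 in any library. Neutrophil markers summed to 11.4, 13.2 and 29.5 CPM in knockout libraries, against 18.0, 15.0 and 13.8 CPM in control libraries, and the defining genes Ly6g and Elane had at most 3 reads in every library. The other 8 of these 10 genes, described after their values were seen, moved in different ways. Cxcr2 had 105 to 125 reads in knockout libraries, against 107 to 142 reads in control libraries, and Csf3r, the G-CSF receptor, had 62 to 100 reads in knockout libraries, against 80 to 83 reads in control libraries, both with overlapping groups. The granule genes Ngp, Camp and Mpo were lower in knockout libraries without overlap. So were 6.82% of all genes tested, a share that leaves out Camp and Mpo, which had too few reads to be tested. Ngp had 5, 6 and 14 reads in knockout libraries, against 53, 15 and 21 reads in control libraries (edgeR adjusted p = 0.536). Camp had 0, 4 and 5 reads in knockout libraries, against 6, 7 and 13 reads in control libraries. Mpo had 0, 1 and 0 reads in knockout libraries, against 5, 2 and 2 reads in control libraries, mostly under the floor of 3 reads. S100a8, S100a9 and Retnlg had overlapping groups, and among the 10 genes knockout 3 was the highest library, by CPM, only for S100a8, S100a9 and Csf3r. Hepatocyte markers summed to 0.545 to 7.50 CPM in knockout libraries, against 1.33 to 7.87 CPM in control libraries, with 6 of 8 at 0 in some library. Liver is the main source of plasma LBP and LRG1, and the most abundant of its markers, Alb, had 0.257, 0.347 and 3.29 CPM in knockout libraries, against 1.23, 3.61 and 0.938 CPM in control libraries. Fibroblast and keratinocyte markers, which define skin, were abundant and overlapped between the groups, at 28076 to 30788 and 25583 to 30131 CPM in knockout libraries, against 26945 to 32134 and 19544 to 36426 CPM in control libraries.

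**Figure D5:**
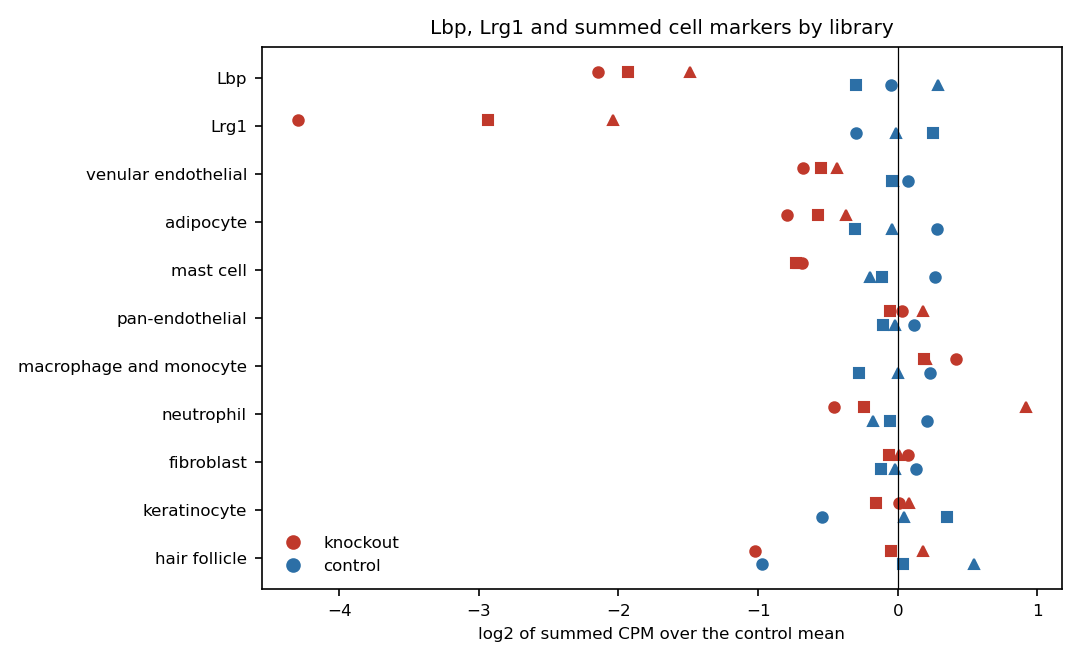
Log2 of the level in each library over the control mean for Lbp, Lrg1 and the summed CPM of 9 marker lists, knockout in red above control in blue, marker shapes as replicate numbers. Lbp, Lrg1, venular, adipocyte and mast cell rows have knockout libraries wholly to the left of control libraries, and the other 6 rows overlap.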

How the data were processed

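Per the labels' protocols, RNA was taken from frozen skin with Trizol, and poly(A) RNA was captured, fragmented and made into PCR-amplified libraries. The authors deposited an estimated count (expected read count) per gene and library, per the file headers, without normalization; 31.0 to 31.9% of values lie more than 0.001 from a whole number. Tools named in the submitters' processing notes, with no role, are RSEM 1.2.12, Bowtie2 2.2.5 and HISAT2 2.0.4, on GRCm38.p6. Use of strand was not stated.

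Counts were rounded, filtered with filterByExpr (minimum count 10), scaled with TMM and compared with edgeR 4.0.16 (R 4.3.3, robust quasi-likelihood test, genotype alone, Benjamini-Hochberg over 15035 genes). That fit was also run on counts simulated from dispersions estimated in these data, where only mean fold changes were checked. Such a run does not bear on how stable the calls are here. SE is the absolute log2 fold change over the square root of F. No 2 libraries were duplicates (9.95 to 51.3 times sampling variance over 15 pairs). RefSeq for GRCm38.p6, which matched 99.32% of gene numbers, gave coordinates and sequence, and GENCODE for that build gave exon lengths (union of exons). Motifs were searched in the 250 bases before an annotated start, which for Socs3, Il1r1, Saa3 and Osmr lies inside the gene's coordinates. The NF-kB pattern, the window (first 300 bases) and the choice of windows shown were changed after a first search had been seen. Genes and lists were chosen with earlier results of these data known. Named genes are the 10 genes, Tie1, up to 4 genes of smallest p with at least 1 CPM per pathway list, marker examples and the 5 nearest profiles of Lbp and of Lrg1. Outside that rule, neighbours on the chromosome, Il6st and Stat3 were added for position or role. The remaining neutrophil markers, further venular and adipocyte markers, Saa1, Saa2, Orm1 and C3 were added after their values were seen. The hepatocyte symbol Tf matched no row. Alternatives were other scalings and filters, DESeq2 1.42.0, limma-voom (limma 3.58.1), a fit not robust, a replicate block, left-out libraries and covariates.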

Additional observations from a re-analysis of the deposited data

How the results depend on the processing

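In the 17 alternatives run, Lbp kept a negative log2 fold change (−2.03 to −1.66) and so did Lrg1 (−3.42 to −2.41). The count of the 10 genes called, 1 as reported, was 2 (Lbp and Lrg1, lower) with DESeq2, without knockout 1 and control 1, and with the hair follicle score as a covariate. It was 0 with limma-voom, with the posterior Hox score and in all 6 fits with 1 library left out (0 to 0), and Lbp alone in the other 6 alternatives. Socs3 was below 0 without knockout 2 (−0.0047), without control 2 (−0.025; 0.17 at the other end of the left-out range) and under the Hox covariate (−0.13), and the other 5 tested genes stayed above 0 in every alternative. The count over all genes, 24 as reported, was 38 with no filter, 210 with DESeq2, 15 with limma-voom, 52 with the replicate block, 139 without knockout 1 and control 1, 119 with the hair follicle score, 3 with the posterior Hox score, and 1 to 11 with 1 library left out. The count of pathway genes called, 0 as reported, was 2 with DESeq2, 1 with the replicate block (Ptx3), 4 without knockout 1 and control 1 (Il1rl1, Serpina3n, Ptx3 and Mt1) and 3 with the hair follicle score, and 0 to 0 with 1 library left out. Tie1 missed the threshold with the posterior Hox score (−4.14, edgeR adjusted p = 0.0589) and without knockout 2 (−4.10), within a left-out range of −4.53 to −4.02. The causes of these shifts were not tested. Same-numbered libraries had deviations from the group means correlated at 0.41, 0.043 and 0.27 across genes, and knockout 2 correlated best with control 3 (0.18), so the numbers were not taken as a pairing. Il6 and Saa3 had too few reads at this depth to pass either filter on low counts.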

Other observations

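Several acute-phase genes, chosen here after their values were seen, were high in single libraries and in different ones. Saa1, an acute-phase serum amyloid A, had 163, 1 and 16 reads in knockout libraries, against 29, 0 and 1 reads in control libraries, while its near-identical copy Saa2 had 0 reads in all 6, so the split between these copies is uncertain. Orm1, an orosomucoid, stood at 124, 32.9 and 25.8 CPM in knockout libraries, against 39.9, 23.8 and 23.6 CPM in control libraries. In both genes knockout 1 and control 1 were the highest libraries of their groups.

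C3, the central complement component, stood at 5.92, 44.1 and 3.14 CPM in knockout libraries, against 17.4, 5.40 and 11.4 CPM in control libraries, with knockout 2 above all others. Serpina3n, a protease inhibitor induced by STAT3, stood at 0.823, 29.7 and 29.7 CPM in knockout libraries, against 1.18, 4.65 and 6.17 CPM in control libraries. Knockout 1 and control 1 were its lowest libraries, and without them the gene was called by edgeR. The library with the most Saa3 reads, knockout 3, was not the highest for Saa1, Orm1 or C3.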
